A study of Mus musculus with 6 samples.

Results

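A set of 10 genes of cell adhesion molecules and cadherins was followed in colon stroma from mice with colitis: Vcam1, Icam1, Alcam, Ncam1, Chl1, Cadm1 and Cadm3 of the immunoglobulin superfamily, and the cadherins Cdh2, Cdh11 and Cdh13. They were chosen by gene symbol and make up 10 of the 20327 symbols in the files. The mice carried Il11-Egfp, a bacterial artificial chromosome transgene in which EGFP marks cells that use the Il11 gene, on a C57BL/6 background, and were 9 to 15 weeks old. All of them drank 1.5% dextran sodium sulfate (DSS), which injures the colon epithelium, for 5 days, and colon cells negative for Ter119, CD45, CD31 and EpCAM (markers of red cells, leukocytes, endothelium and epithelium) were sorted on day 7. EGFP-Positive cells (IL-11+) and EGFP-Negative cells (IL-11-) gave 3 libraries each, and libraries with the same number were taken to come from the same mouse. The IL-11- fraction held every remaining cell of this gate, so it was not a population of fibroblasts alone, and cells without DSS were not compared here. RNA was counted by 5′Tag-seq, which reads tags from the 5′ side of cDNA amplified by PCR, so that tags were not scaled by transcript length.

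Adhesion molecules of the immunoglobulin superfamily carry stacked immunoglobulin domains outside the cell and bind either the same molecule on a neighbour or a different partner, such as an integrin on a leukocyte. Classical cadherins bind like to like in the presence of calcium and are tied through catenins to the actin cytoskeleton. Stromal cells of the gut use both kinds, for contact with each other and to hold leukocytes, and VCAM1 and ICAM1 are known to be induced on stroma by inflammatory cytokines.

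Vcam1, Alcam and Chl1 were higher in IL-11+ libraries, Cadm3 and Cdh13 were lower, and Icam1, Ncam1 and Cdh11 did not pass the test. Alcam differed most among the higher genes, at 4.02-fold, though it passed the filter on low counts only through the IL-11+ libraries, and Cadm3 among the lower, at 3.44-fold. A gene was called when edgeR's quasi-likelihood test gave a Benjamini-Hochberg adjusted p under 0.05 over all 9334 tested genes and the fold change was over 2. A gene was tested when at least 3 of the 6 libraries held at least 10 of its tags, which 8 of the 10 genes did, and Cdh2 and Cadm1 did not. Of all tested genes, 3.44% were called higher and 6.37% lower in IL-11+ libraries, against 3 and 2 of the 8 tested adhesion genes. The median over these 8 was 0.33 on the log2 scale, beside -0.01 for everything tested, but over all 10 genes in a fit with no filter it was 0.02, beside -0.04 for all symbols.

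**Figure D1:**
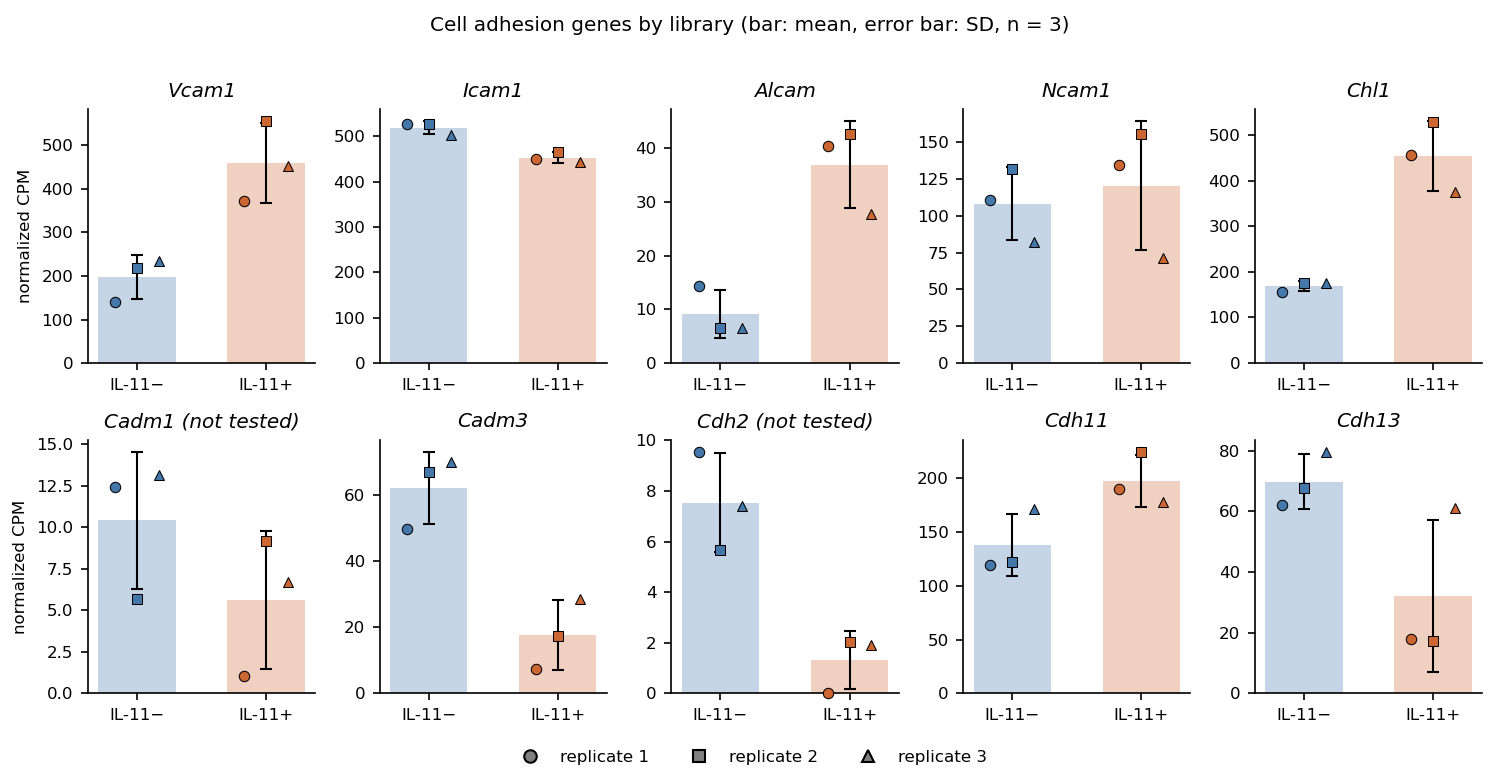
Normalized CPM (tags per 1000000 tags of the tested genes, scaled by edgeR's trimmed mean of M values) of the 10 genes in each library, IL-11- in blue and IL-11+ in orange. Each replicate has its own symbol, with the mean as a bar and the SD as an error bar (n = 3 libraries per group). Vcam1, Alcam, Chl1 and Cdh11 lay wholly higher in IL-11+ libraries, Icam1, Cadm3, Cdh2 and Cdh13 wholly lower, and Ncam1 and Cadm1 overlapped.

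The libraries held 1022851 to 1169817 tags each. Taken as the floor of detection, 3 tags stood for 2.57 to 2.93 tags per 1000000 (CPM) of these totals, whereas normalized CPM is relative to the scaled tags of the tested genes. Intervals and floors given from counts cover counting error only, since tags carried no molecular identifiers. Il11 itself had 28, 51 and 89 tags in IL-11- libraries and 1357, 732 and 2658 in IL-11+ libraries, which checks the sort. All 11 fibroblast markers were tested, with summed levels of 22880 to 25310 for IL-11- and 30960 to 43130 normalized CPM for IL-11+. Dcn was the largest part of the sum in every library, 2 of the 11 markers were called higher and 0 lower, and Lum had a log2 fold change of -0.64 (edgeR adjusted p = 0.0378). Summed immune markers (16.3 to 31.8) and epithelial markers (2.83 to 20.5) stayed low in every library, and Pecam1, Kdr and Epcam were at or under the floor. The p-values measure the spread among these 3 libraries per group, and in such bulk samples fewer cells of a type and less RNA per cell cannot be told apart.

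VCAM1 is the endothelial and stromal ligand of the integrin VLA-4 on lymphocytes and monocytes. Its gene (chr3:116109949-116129688, minus strand, GRCm38) gave 146, 231 and 284 tags for IL-11- (replicates 1, 2 and 3, the order used throughout) and 351, 546 and 475 for IL-11+. Every IL-11+ library was above every IL-11- library. Mean levels were 197 ± 50.3 for IL-11- and 460 ± 91.4 normalized CPM for IL-11+ (SD, n = 3). The log2 fold change was 1.22 ± 0.20 (SE, 95% confidence interval 0.79 to 1.65, edgeR adjusted p = 0.000311). Within the mice, by replicate number, the fold was 2.67, 2.55 and 1.94. Vcam1 stayed called when any of the 6 libraries was left out, with log2 fold changes from 1.01 to 1.36. Of the windows of 50 bases at the 5′ end of its transcripts, 1.13% also occurred in transcripts of other genes, against 0 for the other 9 genes.

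ICAM1 is the ligand of the leukocyte integrins LFA-1 and Mac-1, and is often measured beside VCAM1 as a sign of stromal activation. Icam1 (chr9:21015985-21028817, plus strand) had 552, 560 and 614 tags in IL-11- libraries and 425, 459 and 465 in IL-11+ libraries. The groups did not overlap, IL-11+ being the lower, but the distance was small. The levels were 520 ± 13.4 and 453 ± 11.6 normalized CPM, and the log2 fold change was -0.20 ± 0.15 (95% confidence interval -0.52 to 0.13, edgeR adjusted p = 0.465). This interval corresponds to 0.697 to 1.09-fold, so a 2-fold change in either direction lay outside it. Its coefficient of variation was 2.57% in IL-11- and 2.55% in IL-11+ libraries, against 19.9% for Vcam1 in IL-11+.

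Non-overlap by itself was common in these data. Of all tested genes, 14.5% had their 3 IL-11+ libraries all above the 3 IL-11- libraries and 16.7% had them all below, against 4 and 3 of the 8 tested adhesion genes.

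Promoter entries were found for 4 of the 10 genes, Icam1, Alcam, Chl1 and Cadm3, in RefSeq (GRCm38.p6). The 250 bases before the RefSeq start of Icam1, chr9:21015690-21015939 on the plus strand, are printed because Icam1 had the lowest coefficient of variation of the 10 genes in both groups and, unlike Vcam1, was not called. Capitals mark a STAT motif (TTCNNNGAA) whose first base is 42 bases before the start, and a GC box (GGGCGG, here on the other strand) at 17 bases before it. GENCODE M21 begins Icam1 later, at 21015985, and 0 of its 2 transcripts hold the first bases after the RefSeq start, so these distances hold for the RefSeq start alone.
Icam1: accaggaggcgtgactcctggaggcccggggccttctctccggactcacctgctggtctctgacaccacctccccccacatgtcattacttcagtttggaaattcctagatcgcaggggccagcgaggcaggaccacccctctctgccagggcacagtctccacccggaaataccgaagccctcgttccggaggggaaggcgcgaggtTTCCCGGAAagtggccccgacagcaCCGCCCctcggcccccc
On both strands of promoter windows of 300 bases (250 before the start and 50 after it), the STAT motif was present in 8.30% of 32851 promoters, the GC box in 35.7%, the TATA box (TATAAA) in 13.6%, an AP-1 motif (TGANTCA) in 7.81% and an NF-kB motif (GGG, any 2 bases, then TTNCC) in 4.79%. The window of Icam1 held these STAT and GC box matches, a second GC box and a TATA box after the RefSeq start, and no match to the other letters. Only these exact letters were searched. Looser forms of the NF-kB motif were not looked for, so the lack of a match does not mean that the Icam1 window holds no such site. That of Alcam held GC boxes alone, at 159 and 10 bases before the start, and that of Chl1 held none of the 5 motifs. A match describes the letters and not binding of a factor, and no binding was measured.

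ALCAM (CD166) binds itself and CD6 on T cells. Alcam (chr16:52248996-52454074, minus strand) had 15, 7 and 8 tags in IL-11- libraries and 38, 42 and 29 in IL-11+ libraries. The lowest IL-11+ library exceeded the highest IL-11- library, and levels in IL-11- were low. It passed the filter on low counts through the IL-11+ libraries, since 4 of the 6 libraries held 10 tags or more. The levels were 9.16 ± 4.47 and 36.9 ± 8.06 normalized CPM, a log2 fold change of 2.01 ± 0.35 (95% confidence interval 1.27 to 2.74, edgeR adjusted p = 0.00046). The fold within mice ranged from 2.81 to 6.47, and the log2 fold change from 1.79 to 2.44 with a library left out, with the call kept each time.

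NCAM1 (CD56) is a like-to-like adhesion molecule of neural and some mesenchymal cells. Ncam1 (chr9:49502136-49798925, minus strand) gave 116, 140 and 100 tags for IL-11- and 127, 153 and 75 for IL-11+. The IL-11- range lay inside the IL-11+ range, and in both groups replicate 2 was the highest and replicate 3 the lowest. The levels were 108 ± 25.0 and 121 ± 43.7 normalized CPM, a log2 fold change of 0.15 ± 0.24 (95% confidence interval -0.35 to 0.66, edgeR adjusted p = 0.748).

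CHL1, the close homolog of L1, is known from neurite growth and neuronal migration. Chl1 (chr6:103510586-103750211, plus strand) gave 163, 186 and 214 tags for IL-11- and 430, 520 and 394 for IL-11+. The lowest IL-11+ library lay far above the highest IL-11- library. The levels were 169 ± 11.5 and 453 ± 76.2 normalized CPM, a log2 fold change of 1.42 ± 0.17 (95% confidence interval 1.06 to 1.79, edgeR adjusted p = 1.17e-05), which was the smallest p of the 8 tested members. The fold within mice was 2.93, 3.01 and 2.14, and the call was kept with each library left out (log2 fold changes from 1.31 to 1.54).

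Tested genes with at least 30 tags on average were ranked by their correlation with Chl1 over the 6 libraries. The first 3 were Gja1, which encodes the gap junction protein connexin 43 (Pearson r = 0.998), Vcan, which encodes the matrix proteoglycan versican (0.995), and Cxcl5, a neutrophil chemokine (0.994). The size of their change differed, with log2 fold changes of 1.62, 1.33 and 3.43. The correlations are of log2 CPM over 6 libraries that fall into both groups, and are given as a description only.

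**Figure D2:**
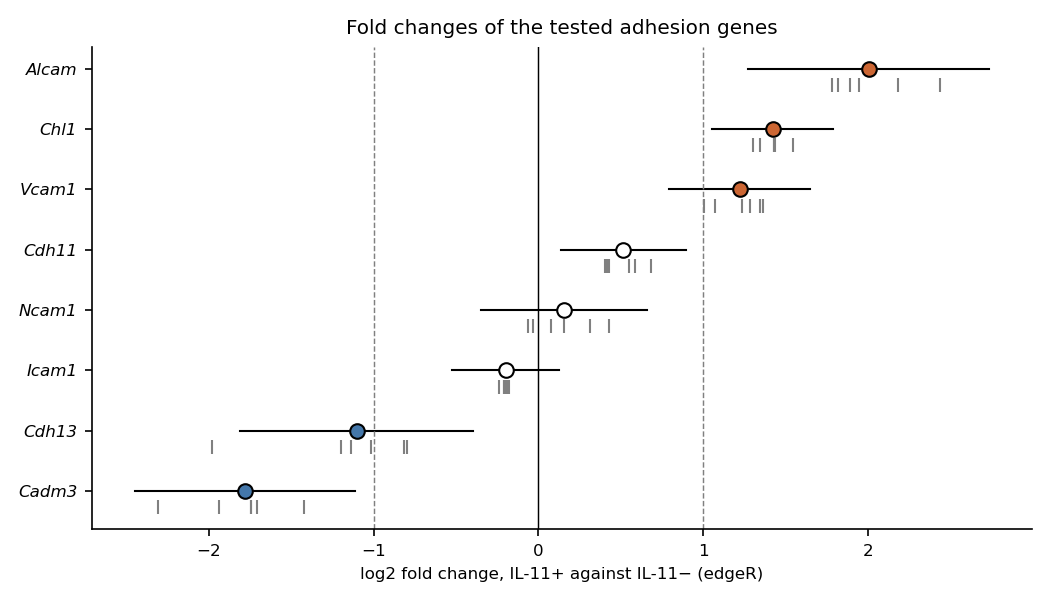
Log2 fold change of IL-11+ against IL-11- libraries for the 8 tested genes (edgeR), with the 95% confidence interval as a line and the values with each of the 6 libraries left out as grey ticks. Orange points were called higher, blue lower and white not called, and dashed lines mark a 2-fold change. The ticks of Cdh13 run from -1.98 to -0.80, and those of Ncam1 lie on both sides of 0.

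The CADM proteins (nectin-like molecules) join neighbouring cells by binding themselves or each other, and CADM3 is best known from axons. Cadm3 (chr1:173333258-173367695, minus strand) had 52, 71 and 85 tags in IL-11- libraries and 7, 17 and 30 in IL-11+ libraries. Every IL-11+ library was below every IL-11- library. The levels were 62.1 ± 10.9 and 17.8 ± 10.6 normalized CPM, a log2 fold change of -1.78 ± 0.32 (95% confidence interval -2.45 to -1.11, edgeR adjusted p = 0.000607). The call was kept with each library left out, at log2 fold changes from -2.31 to -1.42. The genes best correlated with Cadm3 over the 6 libraries, by the same measure, were Atp2a2, the calcium pump SERCA2 of the sarcoplasmic reticulum (r = 0.999), Ube2l6 (0.997) and Mustn1, a small protein of the musculoskeletal system (0.995). Their log2 fold changes were -0.39, -0.79 and -1.58, so a high r did not mean a change of equal size.

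Of the 4 promoter entries, that of Cadm3 alone held an AP-1 motif, with its first base 186 bases before the start used in that entry. RefSeq's span of the gene reaches farther upstream, to position 173368139, so a transcript may begin before this site. The site and 10 bases on each side, chr1:173367865-173367891 read on the minus strand, are printed with the motif in capitals.
Cadm3: gtcccacttcTGAGTCAgctccctccc

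Cadm1, which encodes the best studied CADM protein (chr9:47530173-47857637, plus strand), had few tags and was not tested. It had 13, 6 and 16 tags in IL-11- libraries and 1, 9 and 7 in IL-11+ libraries. The groups overlapped. The sums were 35 and 17 tags, a ratio of IL-11- to IL-11+ of 1.94 for the library totals (exact 95% interval 1.06 to 3.70, counting error only), and without a filter on low counts edgeR gave an adjusted p of 0.451. The counting interval does not hold the spread between libraries, which the edgeR fit does.

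Cdh11 (cadherin-11 or OB-cadherin, the mesenchymal cadherin of fibroblasts and osteoblasts) was the most abundant of the 3 cadherins in tags. The gene (chr8:102632095-102785642, minus strand) gave 125, 130 and 208 tags for IL-11- and 179, 221 and 186 for IL-11+. In raw tags IL-11- replicate 3 reached into the IL-11+ range, but after scaling the groups were separate, IL-11+ being the higher. The levels were 138 ± 28.8 and 197 ± 24.4 normalized CPM, a log2 fold change of 0.52 ± 0.18 (95% confidence interval 0.14 to 0.90, edgeR adjusted p = 0.0643). The fold within mice was 1.59, 1.83 and 1.04. With the mouse as a block the adjusted p was 0.0141, still with a fold under 2, so that Cdh11 was not called in either fit.

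Cadherin-13 (T-cadherin) lacks the transmembrane and cytoplasmic parts of classical cadherins, is held by a lipid anchor and is known from vascular cells. Cdh13 (chr8:118283733-119324921, plus strand) had 65, 72 and 97 tags in IL-11- libraries and 17, 17 and 64 in IL-11+ libraries. IL-11+ replicate 3 stood apart, at 61.0 normalized CPM against 18.02 and 17.26 in the other IL-11+ libraries, and only just below IL-11- replicate 1. The levels were 69.9 ± 8.96 and 32.1 ± 25.1 normalized CPM, a log2 fold change of -1.10 ± 0.34 (95% confidence interval -1.81 to -0.40, edgeR adjusted p = 0.0316).

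This call rested on single libraries and was kept in 2 of the 6 fits with one left out. It was lost without IL-11- replicate 2 (log2 fold change -1.14, adjusted p = 0.0883), IL-11- replicate 3 (-1.01, 0.0949), IL-11+ replicate 1 (-0.82, 0.136) or IL-11+ replicate 2 (-0.80, 0.163). Without IL-11+ replicate 3 it was -1.98, and with the mouse as a block the adjusted p of Cdh13 was 0.000153.

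Cdh2 (N-cadherin) is the classical cadherin of neurons, muscle and many mesenchymal cells. The gene (chr18:16588877-16809246, minus strand) had 10, 6 and 9 tags in IL-11- libraries and 0, 2 and 2 in IL-11+ libraries. The groups did not overlap, and all IL-11+ libraries were under the floor of 3 tags. It was not tested, and its sums of 25 and 4 tags gave a ratio of IL-11- to IL-11+ of 5.90 (exact 95% interval 2.04 to 23.3, counting error only). With no filter on low counts, or with the filter set at 10 tags over all libraries together, edgeR called it lower, with adjusted p of 0.0314 and 0.0406.

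Ratios of tags within a library do not depend on scaling, and were formed for pairs of relatives picked after their values were seen. Tags of Vcam1 per tag of Icam1 were 0.265, 0.413 and 0.463 in IL-11- libraries and 0.826, 1.19 and 1.02 in IL-11+ libraries, a 2.71-fold higher geometric mean in IL-11+. Tags of Chl1 per tag of Ncam1 were 1.41, 1.33 and 2.14 against 3.39, 3.40 and 5.25, or 2.47-fold higher. Neither pair overlapped between the groups.

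For Cdh11 over Cdh13 the values were 1.92, 1.81 and 2.14 against 10.5, 13.0 and 2.91, with the ratio in IL-11+ replicate 3 far below the other IL-11+ libraries. The geometric mean was 3.77-fold higher in IL-11+. Since the pairs were picked with their values known, these ratios are a description with no test.

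**Figure D3:**
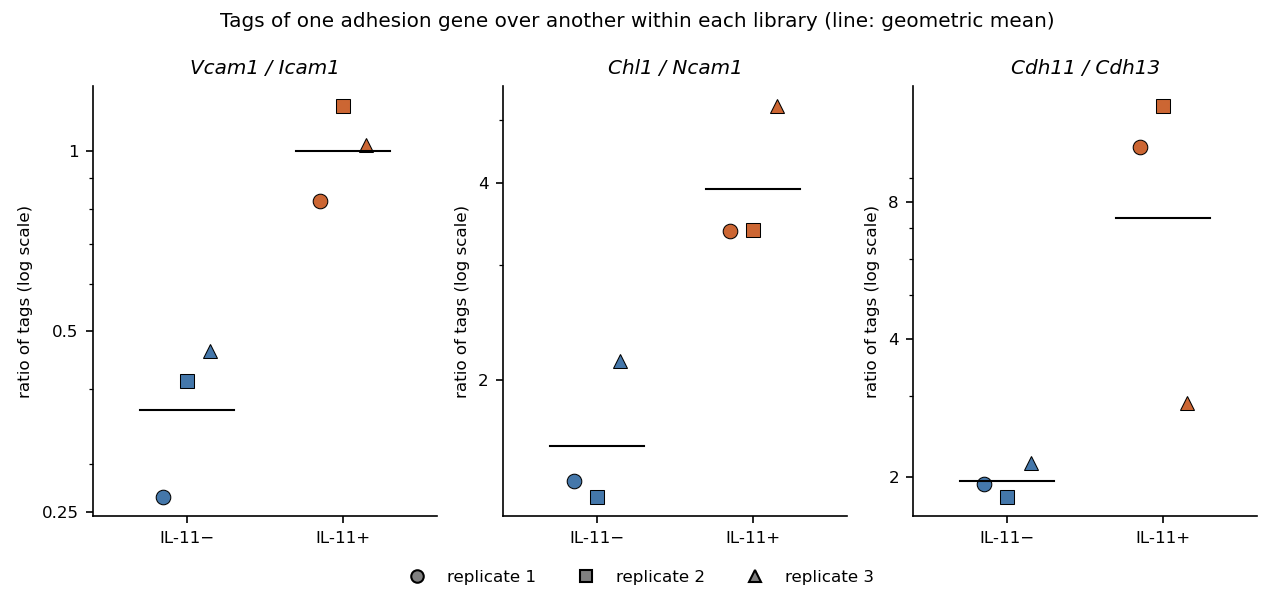
Ratio of the tags of 2 adhesion genes within each library, on log axes, for Vcam1 over Icam1, Chl1 over Ncam1 and Cdh11 over Cdh13. Each symbol is a library and each line the geometric mean of 3 libraries, and in all 3 panels the IL-11+ libraries are above the IL-11- libraries, with IL-11+ replicate 3 lowest of its group for Cdh11 over Cdh13 (2.91).

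Markers of other cells of the gate moved with the group. Summed smooth muscle markers (Acta2, Myh11 and others) were 2769 to 4286 for IL-11- and 141 to 394 normalized CPM for IL-11+, with 9 of 10 called lower. Pericyte markers were 2160 to 2725 against 807 to 1079, with 6 of 9 tested called lower. Rgs5 made up most of the sum in IL-11- libraries, Abcc9 was its largest part in IL-11+ libraries, and 2 pericyte markers went the other way under the 2-fold threshold, Abcc9 (log2 fold change 0.67, edgeR adjusted p = 0.0167) and Kcnj8 (0.71, 0.0394). Sums for interstitial cells of Cajal were 172 to 278 against 20.3 to 50.5, with 3 of 3 tested called lower.

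Cadm3 and the summed smooth muscle markers put the 3 libraries in the same order within each group, while the pericyte sums (2725, 2354 and 2160 against 1079, 905 and 807) put them in the reverse order. IL-11+ replicate 3, highest for Cdh13 and Cadm3 among IL-11+ libraries, also had the highest smooth muscle sum among them (394, against 141 and 207). It was highest, too, for interstitial cells of Cajal (50.5, against 21.2 and 20.3) and enteric neurons (18.1, against 10.6 and 6.09). The low mesothelial and epithelial sums and Il11 itself (2658 tags) were also highest in this library. Fibroblast, pericyte and endothelial sums were lowest in it. Enteric glia markers summed to 101 to 136 in IL-11- and 13.2 to 19.1 in IL-11+ libraries, with both tested markers called lower. Of the neural molecules among the members, Chl1 was called higher, Cadm3 was called lower and Ncam1 was not called. Enteric neuron markers summed to 23.6 to 36.1 against 6.09 to 18.1, endothelial markers to 30.2 to 45.8 against 13.4 to 20.1, and mesothelial markers to 6.60 to 23.8 against 0 to 1.91. Erythroid markers, mostly hemoglobins, ranged from 0 to 305.5 in IL-11- and from 2.03 to 19.1 in IL-11+ libraries. The part of these cells in the levels of Cadm3, Cdh13, Cdh2, Chl1 and Ncam1 was not tested.

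**Figure D4:**
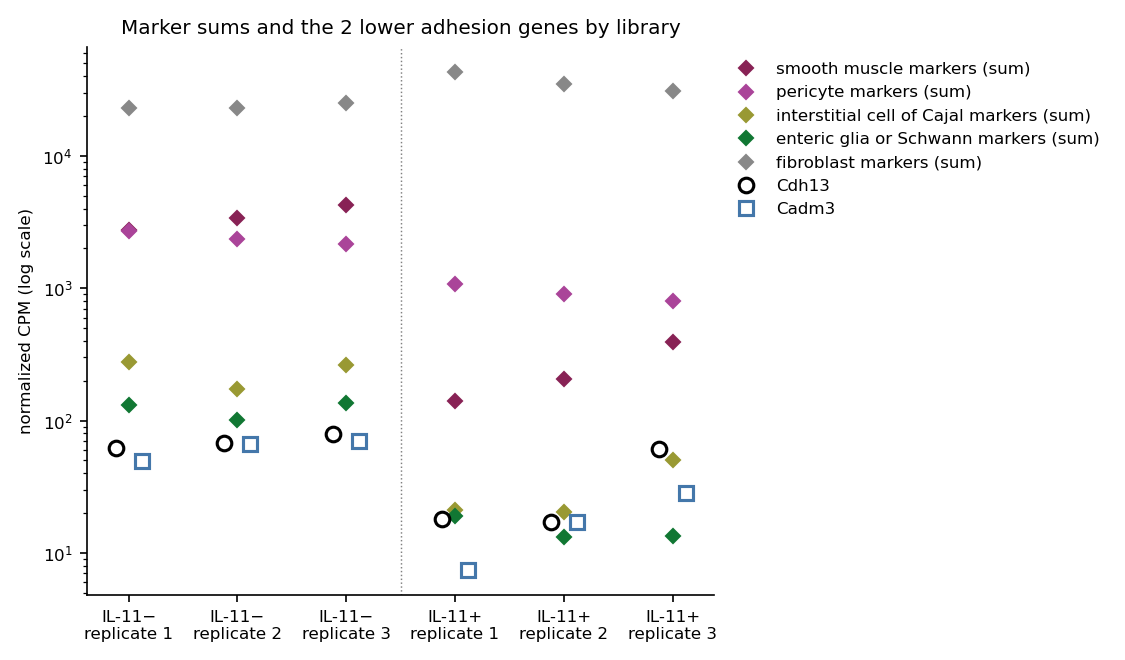
Normalized CPM (log axis) of Cadm3 and Cdh13 and the summed normalized CPM of 5 marker lists in each of the 6 libraries. Smooth muscle sums fell between 2769 and 4286 in IL-11- and between 141 and 394 in IL-11+ libraries. The highest IL-11+ values of Cadm3, Cdh13 and the sums for smooth muscle and interstitial cells of Cajal are all in replicate 3. The lowest IL-11+ sums for fibroblasts and pericytes are in the same replicate.

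Other genes of cell adhesion were counted from lists chosen by function. Of 45 other cadherins and protocadherins, 36 were in the files, 9 were tested, 0 were called higher and 2 lower, with a median log2 fold change of -0.42. In DESeq2, too, 0 of these 9 were called higher and 2 lower. Of the 9, 5 had an unadjusted p under 0.05 in edgeR, a larger share than the 26.7% of all tested genes. With no filter on low counts, 1 gene of this list was called higher and 4 lower. Those called lower numbered 4 with 10 tags over all libraries together and 1 with 10 tags required in every library. Cdh6 (K-cadherin) had 33, 35 and 28 tags against 1, 3 and 2, a ratio of IL-11- to IL-11+ of 15.1 (exact 95% interval 6.69 to 42.2, counting error only), and it was no longer tested once an IL-11- library was left out. Pcdh19, a protocadherin of the nervous system, fell by 1.63 ± 0.27 on the log2 scale (edgeR adjusted p = 0.000311). The most abundant uncalled genes were Pcdh7 (log2 fold change 0.25) and Fat1 (-0.43).

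Catenins and other cadherin partners, which link cadherins to actin, had 7 of 16 genes tested and 0 called in either direction by edgeR or DESeq2 (median -0.26). Of these 7, 1 had an unadjusted p under 0.05 in edgeR, beside 26.7% of all tested genes. It was Jup (plakoglobin), named after its values were seen (log2 fold change -1.08 ± 0.37, edgeR adjusted p = 0.0541). Jup was called lower with the mouse as a block (adjusted p = 0.0077), scaled by library size only, with no filter, with 10 tags required in every library, and without IL-11- replicate 3 or IL-11+ replicate 1. Ctnnb1 (β-catenin) and Vcl (vinculin), the most abundant by the naming rule, had log2 fold changes of 0.15 and -0.06.

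Nectins and the remaining CADM genes had 4 of 13 tested, with a median of 0.17. Of these 4, 1 was called higher and 1 lower, and 2 had an unadjusted p under 0.05 in edgeR, beside 26.7% of all tested genes. Nectin2, which binds nectins and receptors on lymphocytes, rose by 1.86 ± 0.36 on the log2 scale (10, 6 and 9 tags against 30, 31 and 21, edgeR adjusted p = 0.00111). Like Alcam, it passed the filter on low counts through the IL-11+ libraries. Cadm4 had 15, 10 and 12 tags against 1, 0 and 6 and was called lower (edgeR adjusted p = 0.0261), with a ratio of sums of 4.99 (exact 95% interval 2.195 to 13.3, counting error only). Like Cadm3, Cadm4 had all its IL-11+ libraries below all IL-11- libraries. Its call was lost without IL-11+ replicate 1 (log2 fold change -1.87) or replicate 2 (-1.63), and it was not tested without any of the IL-11- libraries. Pvr and Nectin3 were not called, at 0.18 and 0.16.

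Among 50 other adhesion molecules of the immunoglobulin superfamily, 28 were tested, and the median was -0.11. Of the 28, 15 had an unadjusted p under 0.05 in edgeR, beside 26.7% of all tested genes. In the main fit 3 were called higher and 4 lower, beside 3.44% and 6.37% of all tested genes. With the mouse as a block 4 were higher and 5 lower, the added genes being F11r (edgeR adjusted p = 0.0376) and Opcml (0.0475), named after their values were seen. Mpzl1, a cell surface protein that signals through the phosphatase SHP2, rose by 1.47 ± 0.25 on the log2 scale (edgeR adjusted p = 0.000352), Ptgfrn, a tetraspanin partner, by 1.2015 ± 0.17 (adjusted p = 4.56e-05) and Sdk1 (sidekick 1, a synaptic adhesion molecule) by 1.12 ± 0.23 (adjusted p = 0.00195). Sdk1 was just under the 2-fold threshold without IL-11+ replicate 2 (0.99). Those lower were Mcam, itself in the pericyte list (-2.95 ± 0.29), Esam, the endothelial adhesion molecule (-3.71 ± 0.45), Bcam, a laminin receptor (-3.50 ± 0.38), and Cdon, a co-receptor of hedgehog (-2.06 ± 0.43), with edgeR adjusted p from 1.16e-06 to 0.00254. Bcam, Esam and Cdon were no longer tested once an IL-11- library was left out. The most abundant uncalled genes were Clmp (0.89, adjusted p = 0.00168, under the 2-fold threshold) and Bsg (0.13). Clmp was called without IL-11- replicate 2 (1.03, adjusted p = 0.00396).

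Of 14 counter-receptors and anchors of VCAM1, ICAM1 and ALCAM, 6 were tested, 0 were called higher by edgeR or DESeq2 and 1 was called lower (median -0.25). This was Itga4, the α chain of the VCAM1 receptor VLA-4, with 44, 55 and 57 tags against 10, 15 and 9 and a log2 fold change of -2.02 ± 0.29 (edgeR adjusted p = 6.56e-05). Its partner chain Itgb1 was not called (-0.09), nor was Rdx (radixin, 0.04). Of the 6 tested, 1 had an unadjusted p under 0.05 in edgeR, beside 26.7% of all tested genes.

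The NF-kB subunits and inhibitors, of a pathway known to drive Vcam1 and Icam1, had all 13 genes tested and 0 called (median 0.23). Of the 13, 5 had an unadjusted p under 0.05 in edgeR, beside 26.7% of all tested genes. Tnfaip3, the inhibitor A20, named after its values were seen, stood just under the 2-fold threshold at a log2 fold change of 0.99 ± 0.18 (edgeR adjusted p = 0.000596). It had 275, 267 and 256 tags against 500, 513 and 404, and was called higher by DESeq2, with RLE scaling, with the looser filters, and without IL-11- replicate 1, IL-11- replicate 2 or IL-11+ replicate 3. With the mouse as a block 1 gene was called lower, Ikbkg (adjusted p = 0.0482), also named after its values were seen. Nfkbia, the inhibitor IκBα, had a log2 fold change of 0.73 ± 0.19 (edgeR adjusted p = 0.0116, under the 2-fold threshold) and Nfkbiz one of -0.41 (adjusted p = 0.107).

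**Figure D5:**
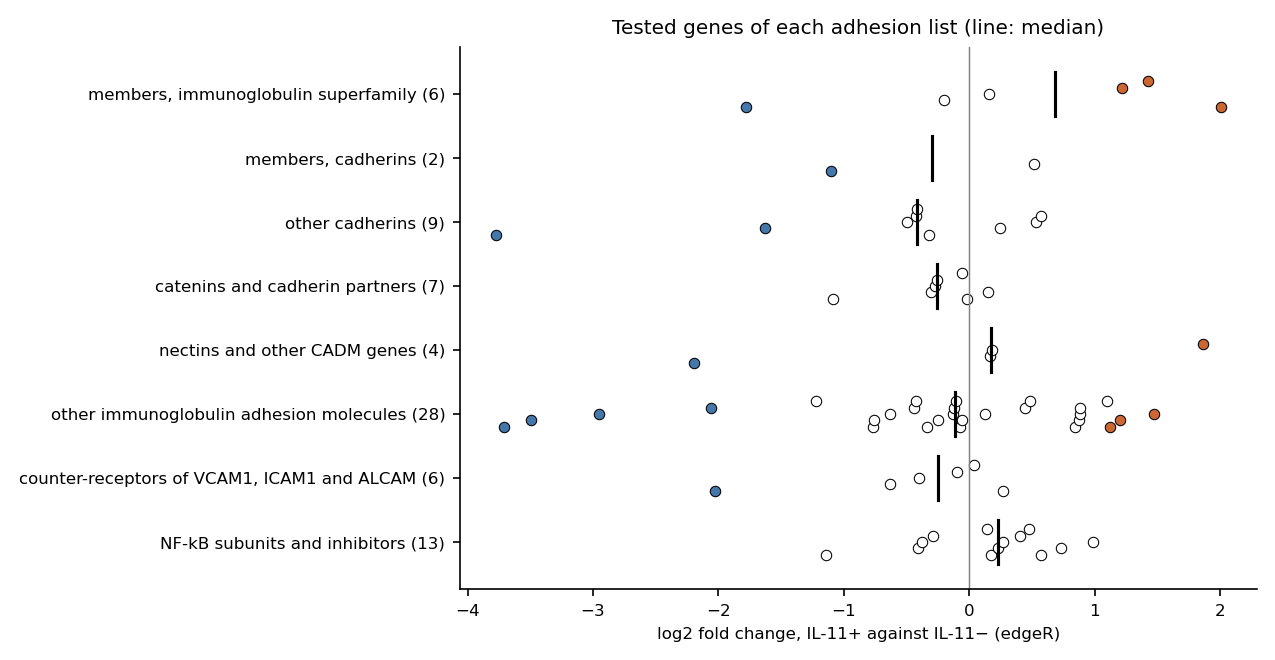
Log2 fold change of IL-11+ against IL-11- libraries (edgeR) for the tested genes of each list, with the number tested in parentheses and the median as a line. Orange points were called higher, blue lower and white not called. The 2 upper rows hold the 8 tested adhesion genes, with medians of 0.69 and -0.29, and the points farthest to the left are Cdh6, Esam and Bcam.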

How the data were processed

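The submitters' notes name Cutadapt 1.18 for trimming and Bowtie2 2.2.5 for mapping, which the methods say was done against mm10 transcripts of RefSeq in 1 orientation. The authors deposited the count of tags per gene symbol for each library, not normalized. From these counts, levels and tests were computed with edgeR 4.0.16 in R 4.3.3 (scaling by TMM, glmQLFit and glmQLFTest, group as the only term), for genes reaching 10 tags in 3 or more libraries, with Benjamini-Hochberg adjustment over 9334 genes. The study used TCC with edgeR at the same thresholds of 0.05 and 2-fold. DESeq2 1.42.0, other scalings and filters, and each library left out were the alternatives. The code was tested on simulated counts. Members and lists were chosen with earlier results of these data known. Named genes were the 10 members, every called gene of the other lists and the 2 most abundant uncalled genes of each, with exceptions stated. Same-numbered libraries were taken as pairs from a mouse, since the methods give 3 mice and their deviations from the group means correlated over 5064 genes averaging 30 tags or more (r = 0.231, 0.209 and 0.27). The pairing remains an assumption, because the sample titles give a number and no mouse, and libraries with different numbers were not correlated for comparison. Positions are from GENCODE M21 (GRCm38). Library totals and the precision they give are stated with the results.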

Additional observations from a re-analysis of the deposited data

How the results depend on the processing

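Vcam1, Alcam, Chl1 and Cadm3 kept their direction and call under every scaling, in DESeq2, with the replicate block and with each library left out. The replicate block changed the call of none of the 8 tested members (Cdh11 0.52 with the replicate block). Members called higher numbered 3 in each of these, and 2 with 10 tags required in every library, which drops Alcam. Members called lower numbered 2, but 1 with that filter, which drops Cadm3, 3 with no filter or with 10 tags over all libraries together, where Cdh2 joins, and 1 to 2 with a library left out. With adjusted p alone 638 genes were called higher in all. Those called lower numbered 256 with 10 tags required in every library and 341 to 579 with a library left out. Values near 0 changed sign. With a library left out, log2 fold changes ran from -0.065 to 0.43 for Ncam1, -0.041 to 0.20 for Bsg, -0.030 to 0.30 for Nectin3, -0.039 to 0.32 for Pvr and -0.25 to 0.12 for Vcl. Rdx was at -0.040 scaled by library size only and at -0.00082 with 10 tags in every library. The causes were not tested. Depth limits Cdh2, under 3 tags in each IL-11+ library, and Cadm1.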
